A study of Mus musculus with 2 samples.

Results

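Aminoacyl-tRNA synthetase genes were examined in adult mouse cortex, with most attention to Lars2, which encodes the mitochondrial leucyl-tRNA synthetase. The members were chosen by gene symbol from a fixed list, which gave 35 genes of the 43346 gene rows in the deposited tables, and all 35 were found. By the known site of their proteins, 17 were cytosolic, 16 were mitochondrial, and Gars and Kars served both compartments.

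The series held 2 libraries of 1 group, labelled as biological replicates 1 and 2. Both came from cortical plate of C57BL/6J mice aged 8 weeks, with littermates of both sexes pooled, and the health state was given as unknown. Both libraries carried the same donor label, no allele or treatment was named, and no separate animals were stated for them. RNA with poly(A) tails and longer than 200 nt was depleted of ribosomal RNA, mixed with spike-in controls and sequenced with stranded paired reads (PE101). No second condition existed, so the data gave levels in this tissue and how 1 library differed from the other, and p-values measure only how far these 2 libraries differ beyond counting error.

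An aminoacyl-tRNA synthetase joins an amino acid to its transfer RNA, the step that fixes the meaning of each codon. Cytosolic enzymes serve translation of nuclear genes, and several of them sit in a multisynthetase complex held by scaffold proteins. A separate set, also encoded in the nucleus, is imported into mitochondria and serves the few proteins made there, which belong to the respiratory chain. Neurons depend strongly on that chain, and inherited defects of mitochondrial synthetases are known to affect the brain.

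The last exon-exon junction of Lars2 is shown because the contig signal over the last exon, given below, differed from that over all other exons. On GRCm38 its left part lies at chr9:123459590-123459619 and its right part at chr9:123461499-123461528, on the plus strand. Both parts are coding sequence of exons 20 and 21, and capitals mark the start of exon 21.
Lars2 last junction: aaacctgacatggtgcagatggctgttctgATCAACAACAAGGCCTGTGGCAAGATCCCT
Exon 21 is 1166 nt long, of which 180 nt are coding and 986 nt follow the stop codon. Lars2 as a whole spans chr9:123366927-123462666 in the annotation.

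The libraries held 91875460 and 92939474 expected counts in replicates 1 and 2, of which 88327121 and 88643335 were on gene rows. Cortical excitatory markers were present at a summed level of 761 and 638 TPM (a level per transcript length, scaled to a fixed library total), and 4 of 7 were lower in replicate 2 by the exact binomial test on counts that is used throughout. All 7 striatal markers were higher in replicate 2 (summed 126 and 377 TPM), all 4 hippocampal markers were lower (summed 18.3 and 6.55 TPM), and all 6 oligodendrocyte markers were higher (summed 3491 and 4253 TPM). Of the other marker lists, 3 of 5 astrocyte genes were higher and 1 was lower, 2 of 5 microglia genes were lower, and 1 of 4 endothelial genes was higher. Over all tested genes 14.7% were higher and 14% lower. No marker was at 0 in either library. The part of these differences in the values below was not tested, and in bulk tissue fewer cells of a type and less RNA per cell cannot be told apart.

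Levels of the synthetase genes spanned from 2.13 to 1603 TPM as means of the 2 libraries. Lars2 (ENSMUSG00000035202.7) stood at 970 TPM in replicate 1 and 2236 TPM in replicate 2. It was the highest member in both libraries, and 34 of the 19829 tested genes had a higher mean TPM. Lars2 alone made up 52.1% and 73.8% of the summed TPM of all 35 members, and 64.0% and 82.2% of their expected counts. All members together took 0.428% and 0.838% of the counts on gene rows, and without Lars2 they took 0.154% and 0.149%. The difference in the group's share between the libraries was therefore in Lars2, while the remaining 34 genes took nearly the same share of both libraries.

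Among cytosolic members the median level was 30.4 TPM in replicate 1 and 27.6 TPM in replicate 2. Sars, the seryl-tRNA synthetase, was highest at 111 and 92.2 TPM. Qars, which charges glutamine, followed at 65.9 and 59.4 TPM. Its leading transcript was only 459 nt long, and by median reads per annotated junction Qars ranked 12 among the members, against 2 for Nars. The junctions counted for a gene were those of its mm9 transcript with most junction reads. Nars, which charges asparagine, stood at 62.1 and 55.1 TPM. Lars, the cytosolic leucyl-tRNA synthetase and counterpart of Lars2, was the lowest cytosolic member at 8.60 and 8.01 TPM. The 2 subunits of the cytosolic phenylalanine enzyme were close to each other in gene TPM, with Farsa at 31.0 ± 2.86 TPM and Farsb at 29.0 ± 1.99 TPM (SD, n = 2). Transcripts annotated as coding held 39.7% of the TPM of Farsa but 89.4% of that of Farsb. Their median reads per annotated junction were 554.5 and 432. Eprs, the single chain that charges both glutamate and proline, stood at 15.3 ± 1.03 TPM (SD, n = 2).

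The genes that serve both compartments were at the upper end of the order. Gars, the glycyl-tRNA synthetase, stood at 53.4 and 47.0 TPM. Kars, the lysyl-tRNA synthetase, stood at 34.4 and 30.8 TPM. Each has to supply both the cytosol and mitochondria from 1 gene.

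Among mitochondrial members the median level was 11.5 and 10.6 TPM, and 11.1 and 9.45 TPM without Lars2. Hars2, for histidine, was the next highest after Lars2 at 28.5 and 25.5 TPM. Vars2, for valine, followed at 21.3 and 17.1 TPM. Transcripts annotated as coding held 40.8% of the TPM of Hars2 and 32.9% of that of Vars2. By median reads per annotated junction Hars2 and Vars2 ranked 21 and 27 among the members, below Iars2 at 13. The lowest member of all was Mars2, for methionine, at 2.23 and 2.03 TPM, with Wars2 (tryptophan) at 2.62 and 2.03 TPM and Ears2 (glutamate) at 3.30 and 2.36 TPM beside it. Mars2 is also the only member without an intron in the mm9 annotation, and its transcript of 11294 nt collected 1674 and 1669 counts despite the low level per length.

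**Figure D1:**
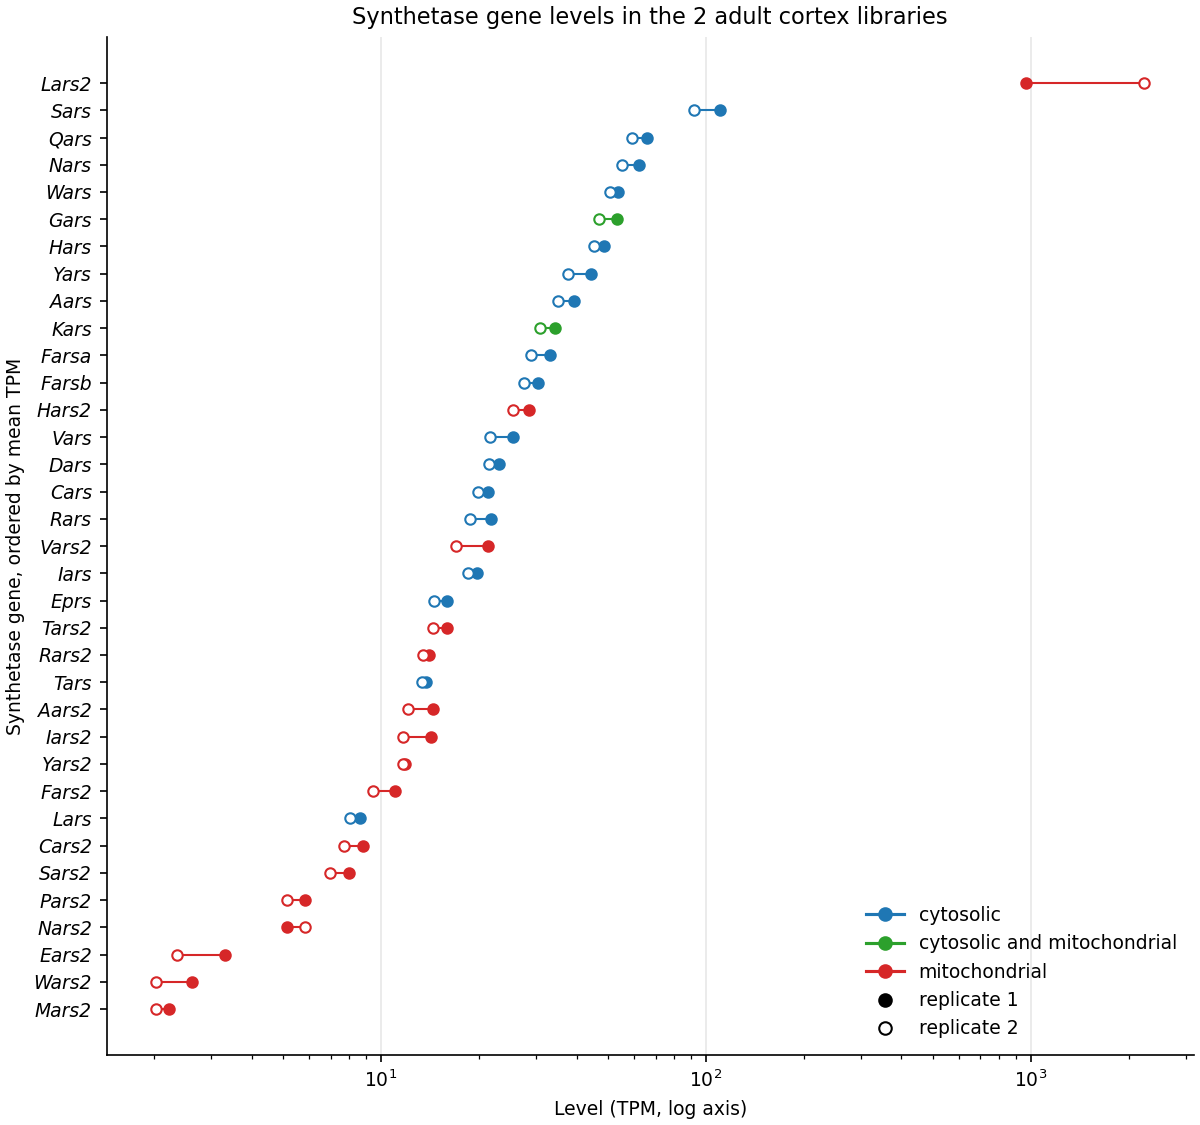
Levels of the 35 synthetase genes in TPM on a log axis, 1 row per gene, with replicate 1 as filled and replicate 2 as open points and colours for the 3 classes. Lars2 lies at 970 and 2236 TPM, apart from the other 34 genes, which lie between 2.03 and 111 TPM.

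In the order of mean TPM, 26 of the 34 neighbouring pairs of genes did not differ by more than the sum of their SDs. The 8 steps that did were Lars2 over Sars, Sars over Qars, Iars over Eprs, Tars2 over Rars2, Yars2 over Fars2, Fars2 over Lars, Sars2 over Pars2 and Nars2 over Ears2. By this rule the middle of the order, from Qars down to Iars, had no separated step. The SDs also hold the shift of TPM between the libraries that most members shared. Within each library some of these neighbours kept their order, such as Hars (48.5 and 45.2 TPM) over Yars (44.3 and 37.6 TPM). Others did not, such as Vars2 (21.3 and 17.1 TPM) and Iars (19.7 and 18.55 TPM). The order was much the same in the separate mm9 RPKM table (a level per length and depth on the older assembly, Spearman 0.971 over the 35 genes, a description of genes that share libraries).

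The cytosolic gene of a partner pair was compared with the mitochondrial gene for the same amino acid. In 14 of 16 pairs the cytosolic gene was higher in both libraries, with a median log2 ratio of TPM of 1.48 over all pairs. The largest ratio was that of Wars over Wars2, at 4.36 and 4.65 in replicates 1 and 2 on the log2 scale. Sars over Sars2 followed at 3.80 and 3.73, and Nars over Nars2 at 3.60 and 3.24. Smaller ratios were seen for Yars over Yars2 (1.79 ± 0.16), Aars over Aars2 (1.49 ± 0.07), Cars over Cars2 (1.32 ± 0.06) and Hars over Hars2 (0.80 ± 0.04; SD, n = 2). Farsa and Farsb exceeded Fars2 by 1.60 ± 0.03 and 1.503 ± 0.06. Eprs exceeded Ears2 by 2.45 ± 0.25 and Pars2, the mitochondrial prolyl enzyme, by 1.48 ± 0.03. The smallest ratios among these 14 pairs were those of Iars over Iars2 (0.56 ± 0.14), Rars over Rars2 (0.56 ± 0.11) and Vars over Vars2 (0.30 ± 0.06).

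The other 2 pairs had the mitochondrial gene higher. Tars stood below Tars2 by a small margin, with log2 ratios of -0.21 and -0.11, and on mm9 RPKM the ratio was 0.016. Lars stood far below Lars2, with log2 ratios of -6.82 and -8.13. Counted by reads across annotated junctions, which leave out reads inside single exons, the Lars over Lars2 ratio was 0.30 on the log2 scale. On the same measure Tars over Tars2 was 0.077 and Iars over Iars2 was -0.15. This measure was added after the data were seen.

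**Figure D2:**
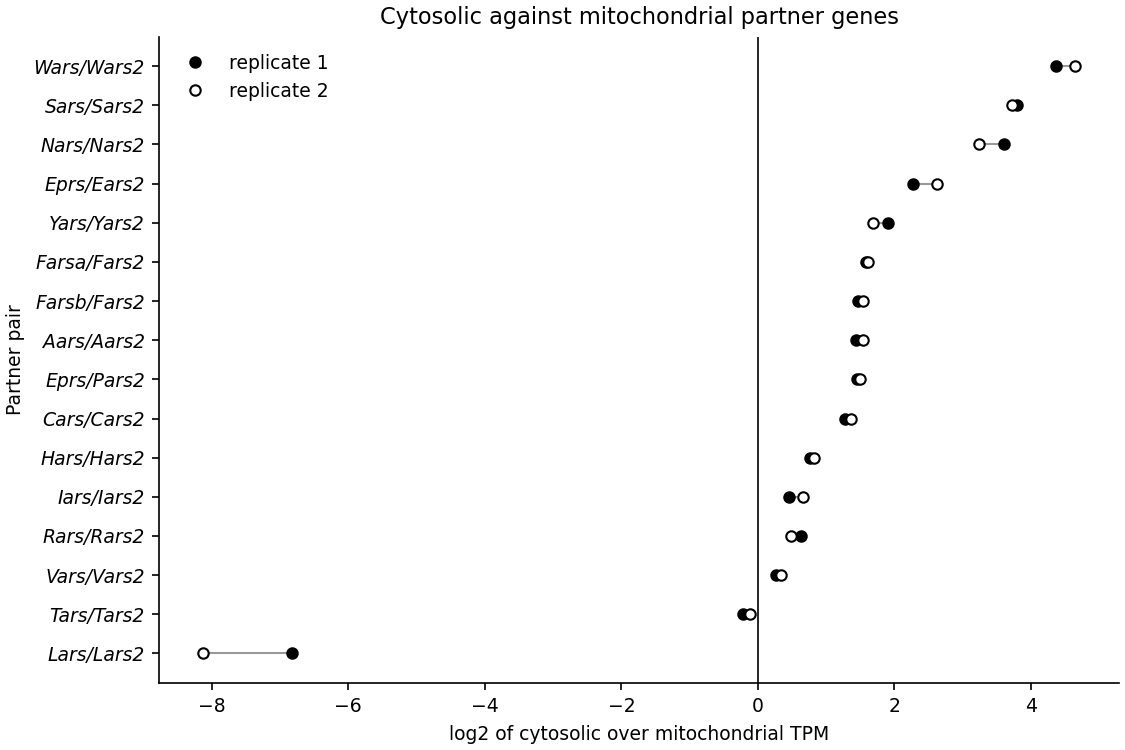
Log2 ratios of cytosolic over mitochondrial TPM for 16 partner pairs, with replicate 1 as filled and replicate 2 as open points. Of the pairs, 14 lie above 0 in both libraries, Tars/Tars2 lies just below 0, and Lars/Lars2 lies at -6.82 and -8.13.

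Each gene's counts in the 2 libraries, scaled by TMM, were set against each other in a two-sided exact binomial test, with Benjamini-Hochberg adjustment over the 19829 genes with at least 10 counts. Over all tested genes 28.7% were called at an adjusted p of 0.05, with 14.7% higher and 14% lower in replicate 2. Of the 35 members 7 were called, 3 higher and 4 lower in replicate 2. This share is below that of all genes, so the count does not set the synthetase genes apart. Scaled by plain library totals instead, 2 members were higher and 7 lower, and 31.2% of all genes were called. With noise raised to the common biological coefficient of variation of 0.0905, 1.31% of all genes were called, and among the members the call remained for Lars2 alone. This coefficient was estimated over all genes from the same 2 libraries, taken as replicates. It is therefore not a separate measure of how animals vary.

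Lars2 held 241631 counts in replicate 1 and 610102 in replicate 2. The ratio of replicate 2 to 1 was 2.57 (95% Clopper-Pearson interval 2.56 to 2.59), or 1.36 on the log2 scale. The binomial adjusted p was too small for the number format, and the adjusted p with the raised noise was 1.57e-10 (edgeR exact test). The interval covers counting error only, since 2 libraries allow no estimate of how Lars2 itself varies between animals.

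The remaining 6 called members changed by less than 1.2-fold. Nars2, for asparagine in mitochondria, had 902 and 1013 counts and was 1.15-fold higher in replicate 2 (interval 1.05 to 1.25, exact binomial adjusted p = 0.0144). Tars, for threonine in the cytosol, had 2274 and 2416 counts and a log2 ratio of 0.12 (exact binomial adjusted p = 0.0255), but on TPM its log2 ratio was -0.042, and with plain totals it was not called. Iars2 had 4480 and 4107 counts, a log2 ratio of -0.10 and an exact binomial adjusted p of 0.0092. Aars2 (-0.10), Vars (-0.09) and Sars (-0.05) were also lower in replicate 2, with exact binomial adjusted p of 0.0299, 0.0227 and 0.0443. The uncalled members lay between log2 ratios of -0.14 (Pars2) and 0.07 (Yars2).

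The members other than Lars2 were close between the libraries. The median absolute log2 ratio was 0.05 over the 35 members and 0.11 over all tested genes. A ratio within 1.2-fold was found for 34 of 35 members (97.1%) and for 74.6% of all tested genes. The tested genes include some with as few as 10 counts over both libraries, where counting error alone widens ratios. Ears2, among the members with fewest counts, had 583 and 524. No background of genes with like counts was taken, so these values do not set the members apart. On deposited TPM the median of all genes shifted by -0.16 (replicate 2 over 1), and that of the members was -0.16 too. On that scale 33 of 35 members were lower in replicate 2, all but Lars2 and Nars2, beside this shift of the same size over all genes.

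**Figure D3:**
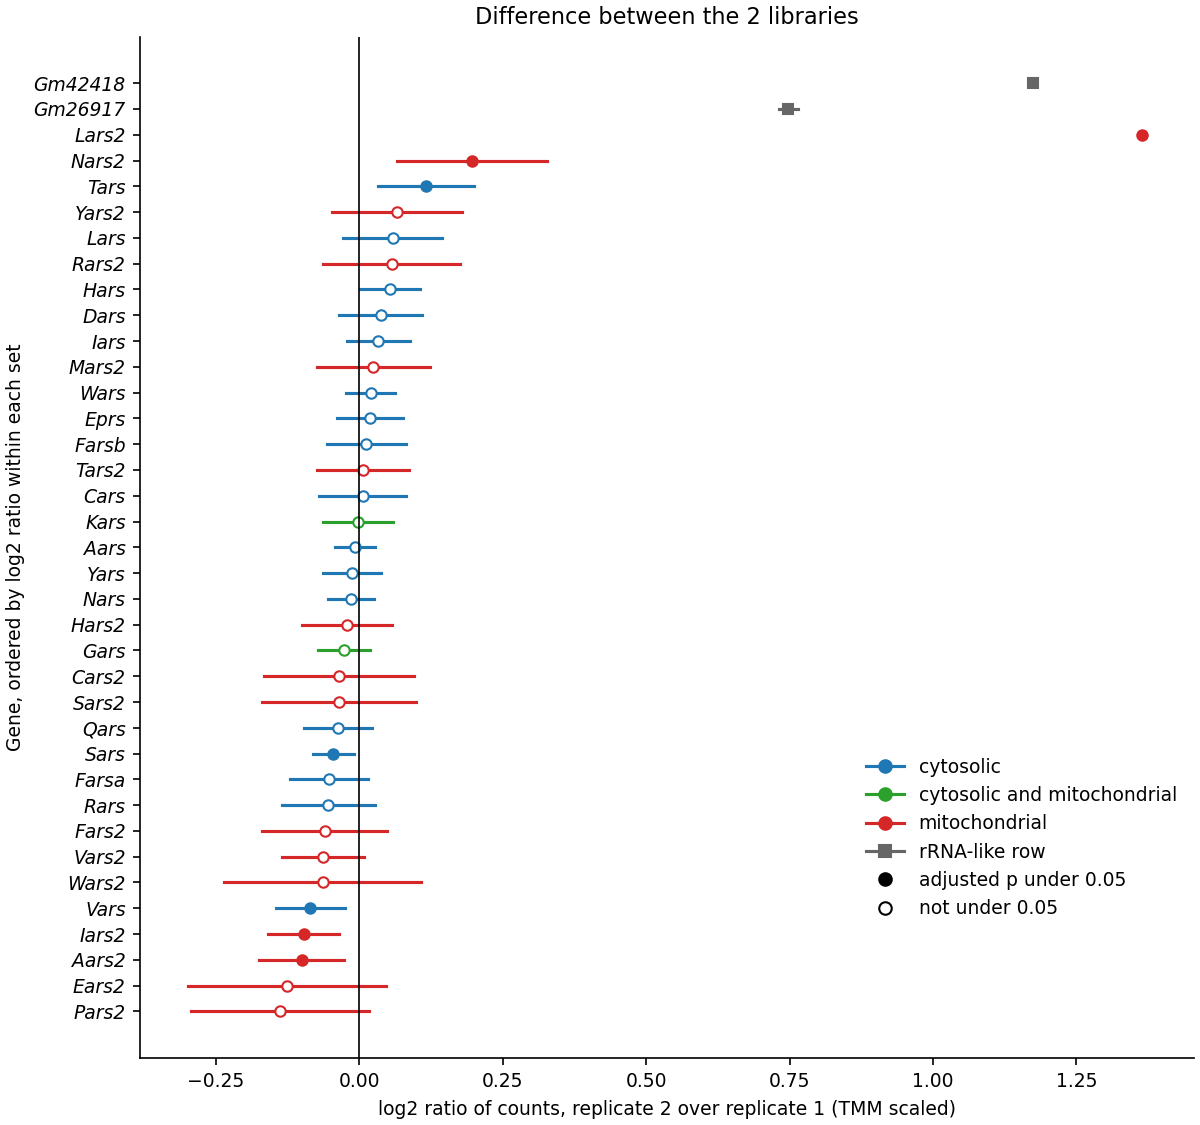
Log2 ratio of TMM-scaled counts in replicate 2 over replicate 1 for the 35 synthetase genes and 2 rRNA-like rows, with 95% counting intervals as bars and filled circles for an adjusted p under 0.05. Lars2 at 1.36 lies beside the rRNA-like rows at 1.17 and 0.75, while the other members lie between -0.14 and 0.20.

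Rows that carry ribosomal RNA-like sequence were also higher in replicate 2, as Lars2 was. Gm42418 stood at 8089 and 16391 TPM and was 2.26-fold higher in replicate 2 by scaled counts, and Gm26917 stood at 230 and 365 TPM and was 1.68-fold higher. Of 7 such symbols listed, 2 had a row and both were called, beside 28.7% of all tested genes called in either direction. Lars2, with its ratio of 2.57, lay above both. The part of ribosomal RNA in the Lars2 value was not tested.

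Reads across splice junctions gave a different picture of Lars2. The deposited mm9 junction table gives read counts in a pair of columns that could not be assigned to replicates. All 20 annotated Lars2 introns had reads, from 46 to 198 per junction over both columns, with a median of 97. The lowest was the junction between exons 5 and 6 and the highest that between exons 17 and 18. The junction printed above, between exons 20 and 21, had 95 reads in the first column and 78 in the second. Summed over the gene, the columns held 1053 and 962 reads, a log2 ratio of -0.13. The RPKM of Lars2 in the mm9 gene table was 180 in its first column and 449 in its second, a log2 ratio of 1.32. Junction reads of Lars2 were thus not higher in the column numbered 2, while its RPKM was, though no file states that equal column numbers mark the same library.

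By median reads per junction Lars2 ranked 30 of 34 members with an intron, where by TPM it ranked 1 of 35. Lars, at 8.31 ± 0.42 TPM (SD, n = 2), had a median of 104 reads per junction, and Nars2, at 5.48 ± 0.49 TPM, had 92. Sars had 1703 and Nars 1364 reads per junction, the highest of all members. Divided by RPKM, Lars2 had 0.308 reads per junction, and the other 32 members with at least 3 introns had from 59.3 (Vars) to 263 (Sars2), with a median of 146. Over 7958 genes with at least 3 introns and an RPKM of at least 1 the median was 117, and 13 genes (0.163%) lay below Lars2.

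**Figure D4:**
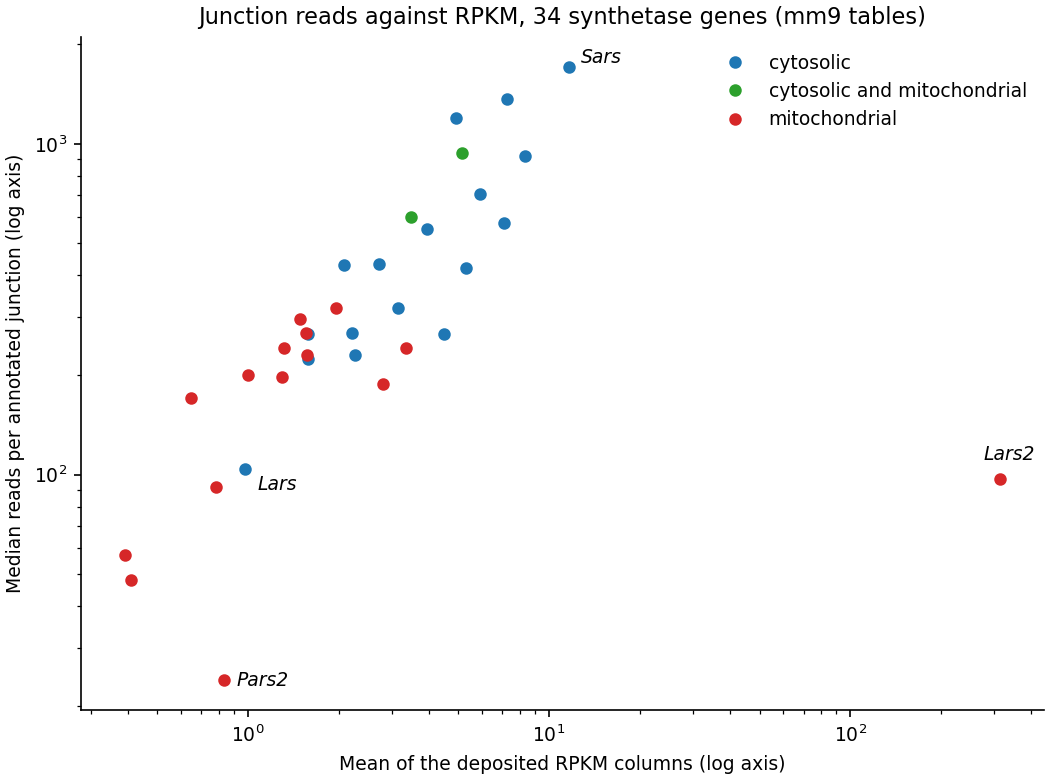
Median reads per annotated junction against mean RPKM for the 34 synthetase genes with an intron, both on log axes, coloured by class. Apart from Pars2, with 1 intron and 24 reads, the other members follow a rising band from Wars2 and Ears2 to Sars, and Lars2 lies far to the right of it at a median of 97 reads and a mean RPKM of 315.

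The signal of expressed contigs showed where in Lars2 the reads lay. On mm9 the contig over the last exon had a signal of 2770. The strongest contigs over the other 20 exons had signals from 0.165 (exon 6) to 3.47 (exon 12), with a median of 0.482. These are values of contigs called separately, and many of them reach into introns, such as the contig of 1921 bases over exon 6 (90 nt) or the 1 contig of 4880 bases over exons 15 to 18, so their signal is not that of the exon alone. On this measure the contig of the last exon lay 5747-fold above the median of the others and 798-fold above that of exon 12, which was 313 bases long and the next highest. Its contig began 219 bases before the exon and ended 390 bases after it, so it was not bounded by the annotated exon. Taken as the highest over the median exon of a gene, the ratio was 5379 for Lars2 and at most 5.48 (Fars2) for the other 33 members measured. Its median over 12910 genes was 2.02, and 0 of them lay above Lars2.

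**Figure D5:**
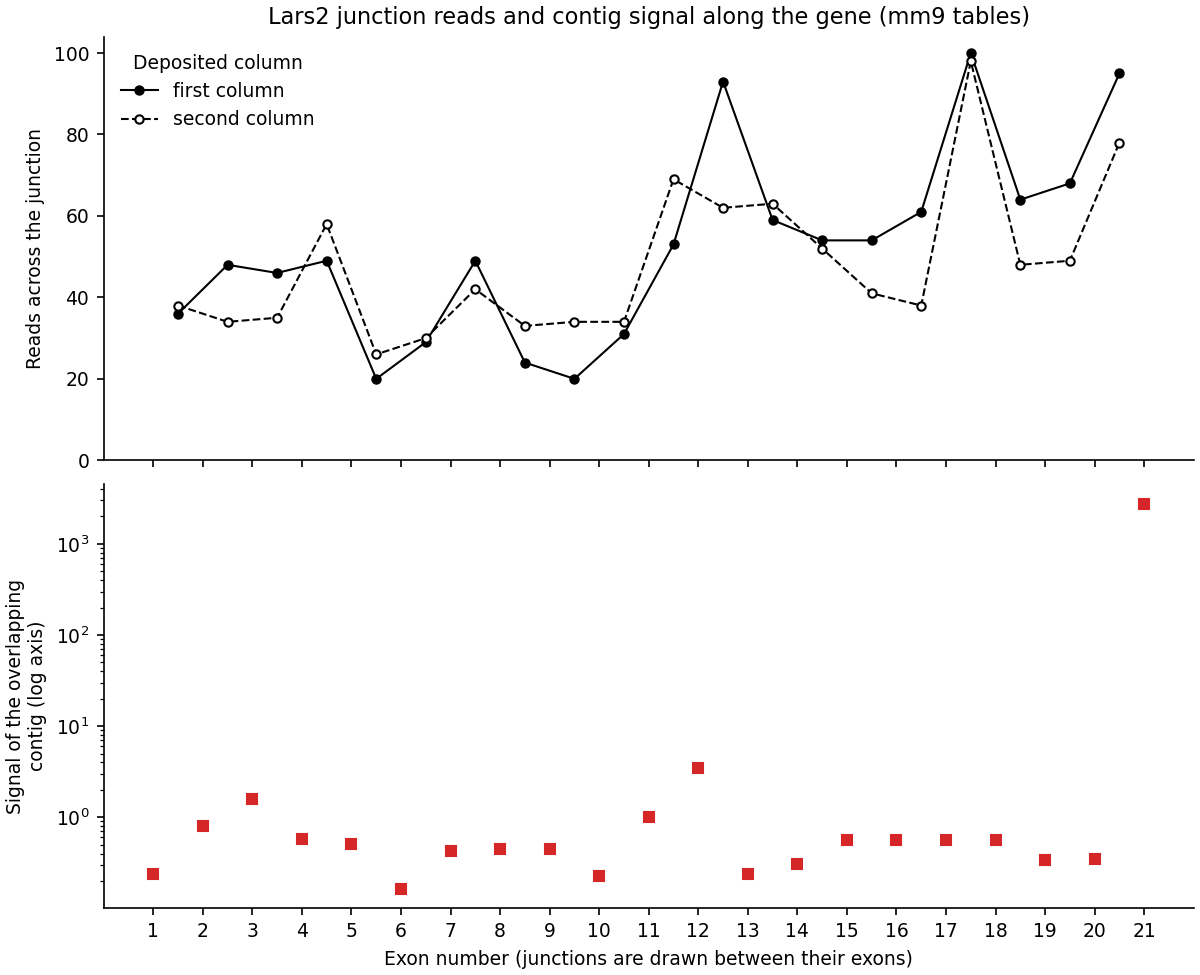
Lars2 along its 21 exons on mm9, with reads across each junction in both deposited columns (upper panel) and the signal of the strongest contig over each exon on a log axis (lower panel). Junction reads stay between 20 and 100 per column over the whole gene, and the contig signal rises from 0.349 on exon 20 to 2770 on exon 21.

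Exon RPKM could not be used for this question. The deposited mm9 exon table gave the same value on all 21 Lars2 exons, 180 in the first column and 449 in the second. The same held on all exons of 6137 of 6137 genes with a single transcript, so the table carries the transcript's value on each exon. The isoform table added no detail either, since Lars2 has 1 transcript of 3881 nt there and therefore 100% of its TPM in both libraries.

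Junctions outside the annotated set were looked at around the last Lars2 exon. The table held 256 of them with an end inside it, of which 87 had both ends inside and 187 had a single read. Together they held 152 reads in the first column and 294 in the second. The one with most reads spanned 203451 bases, had 5 and 19 reads in the columns and had its other end in no annotated gene on mm9. These reads were higher in the column numbered 2, unlike those on the 20 annotated junctions.

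Sequence shared with other annotated transcripts was counted in the vM21 GENCODE transcripts. Windows as long as a read were compared on both strands. No such window of Lars2 was found in a transcript of another gene. Only exact matches in these transcripts were sought, at this length and at 25 nt. Near matches and sequence outside these transcripts were not covered. At 25 nt, 0 of 2908 windows starting before the end of the coding part were shared, and 60 of 962 windows after it were (6.24%). They lay between bases 3172 and 3329 of the transcript and were shared with AA474408 and Gm15564. Those rows held 39 and 34 counts and 5 and 6 counts in replicates 1 and 2, neither of which was called different (exact binomial adjusted p = 0.791 and 0.883). Of the other members, Iars2 shared 21.4% of its read-length windows, with Rab3gap2 and 2010103J01Rik, and Aars shared 12.8% with Exosc6. Hars shared 3.81% with Hars2, and Hars2 2.17% with Hars, whose annotated starts overlap on opposite strands (chr18:36766528-36783205 and chr18:36783008-36792562). Whether the deposited counts used strand is not given in the sources used here, so reads from such overlaps are uncertain. In all 12 members shared any such window.

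Isoform shares described how a gene's level was divided among its annotated transcripts. Coding here is the annotated class and includes short transcripts as well as full ones. The members had 177 transcripts in the deposited tables, of which 176 could be matched to the annotation, and 10 members had 1 transcript. Of 27 members at 10 TPM or more, 6 had a leading isoform under 60% of their TPM. Qars was the most divided, with 18 transcripts and a leading share of 21.9% ± 1.71 (SD, n = 2) from a coding transcript of 459 nt, while its coding transcript of 2793 nt had 16.3% ± 3.08. Hars2 had a leading share of 27.3% ± 0.11, Vars2 of 32.9% ± 2.18, Farsa of 38.4% ± 6.32, Vars of 47.6% ± 1.28 and Cars of 56.1% ± 4.54 (SD, n = 2). The leading isoform was annotated as coding in all 35 members.

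The share of TPM on coding transcripts was lowest for Vars2 at 32.9%, Farsa at 39.7%, Hars2 at 40.8% and Qars at 45.2%. In these genes the next transcripts were mostly annotated as retained introns, for example 22.4% ± 5.32 for a transcript of 1920 nt in Farsa and 21.6% ± 0.11 for a transcript of 769 nt in Hars2 (SD, n = 2). As a share of expected counts, which weighs long transcripts more, coding transcripts held 59.6% for Vars2, 39.7% for Farsa, 78.4% for Hars2 and 65.6% for Qars, and Ears2, at 43.1%, was next to Farsa at the low end. Kars had 3 coding transcripts, of 2007 nt, 2156 nt and 2188 nt, at 67.1% ± 0.95, 29.6% ± 2.70 and 3.34% ± 1.77 (SD, n = 2). Cytosolic and mitochondrial lysyl enzymes are known to arise from this gene by alternative splicing. Ears2 and Wars showed the largest spread between libraries in the leading share, with 73.1% and 56.5% for Ears2 and 85.7% and 70.2% for Wars.

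Promoters were searched for the motif TGATGNAA on both strands, the form of the element through which the stress factor ATF4 is known to act on amino acid genes. RefSeq promoters on GRCm38.p6, from 250 bases before to 50 bases after the start, were matched for 26 of 35 members. Cars, Hars, Hars2, Lars, Nars, Pars2, Rars, Vars and Wars had no match and were not searched. The motif was found in 4 of 10 cytosolic members, 1 of 2 dual members and 0 of 14 mitochondrial members. It was present in 4.51% of all 27025 genes with a promoter, counted per gene like the members, and in 3.97% of all 32851 promoters. For each of these 5 genes 1 match is shown with the motif in capitals, in the direction of the gene, so that the letters behind these counts can be read. A difference between the classes was not tested. A match of letters is a description and does not show binding.
Aars, 9 bases after the start: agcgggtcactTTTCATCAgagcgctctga
Gars, 30 bases before the start: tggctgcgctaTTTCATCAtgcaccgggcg
Iars, 7 bases after the start: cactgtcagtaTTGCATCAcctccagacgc
Tars, 15 bases before the start: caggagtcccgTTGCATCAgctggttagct
Yars, 3 bases after the start: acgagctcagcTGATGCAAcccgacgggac
They lie at chr8:111033840-111033869 for Aars, chr6:55037960-55037989 for Gars, chr13:49682126-49682155 for Iars, chr15:11399655-11399684 (minus strand) for Tars and chr4:129189895-129189924 for Yars. Of these 5 genes Tars was called between the libraries, and Aars, Gars, Iars and Yars were not. The share called over all tested genes was 28.7%.

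Genes around the synthetases were counted in lists. The multisynthetase scaffold genes Aimp1, Aimp2 and Eef1e1 stood at 31.2, 29.7 and 14.4 TPM, and Aimp1 was lower in replicate 2 (log2 -0.14, exact binomial adjusted p = 0.0079). Of the further synthetase genes, Mars stood at 38.2 TPM and Tarsl2 at 11.03 TPM, and neither was called (exact binomial adjusted p = 0.0728 and 0.633). Of 9 genes that edit or complete charged tRNA, Dtd1 was highest at 32.2 TPM, and only Gatc, a subunit of the mitochondrial amidotransferase that makes glutaminyl-tRNA, was called (log2 0.12). Gatc was not called with plain totals, with a minimum of 1 count or with the edgeR test at raised noise. Beside the calls in these lists, 28.7% of all tested genes were called by the binomial test.

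Of 9 genes of translation elongation factors, 1 was higher and 3 were lower in replicate 2, against 14.7% and 14% of all tested genes. With plain totals 7 were called, against 31.2% of all genes, and with the edgeR test at raised noise 0 were. Eef1a1 was highest at 1732 TPM, a mean close to that of Lars2. The mitochondrial factor Tufm was higher in replicate 2 (log2 0.12), and Eef1a2, the form of neurons and muscle, lower (log2 -0.08). Of 18 genes of the integrated stress response, which raises amino acid supply genes, 9 were higher and 2 were lower, against 14.7% and 14% of all tested genes. Their median log2 ratio was 0.10 on scaled counts and -0.09 on TPM, where all genes shifted by -0.16. Atf4 stood at 95.9 and 96.3 TPM with a log2 ratio of 0.16, and the cystine transporter gene Slc7a11 had a log2 ratio of 0.27. Pycr1, for proline synthesis, had the largest called ratio of the list at 0.50, from 138 and 191 counts, and Cebpb fell by 0.21 on the log2 scale. With raised noise 0 of these 18 were called by the edgeR test, against 11 by the binomial test.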

How the data were processed

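The authors deposited expected counts, TPM and isoform percent per gene and transcript on mm10 with GENCODE M4, per the file headers. They also deposited, on mm9 with Ensembl 65, tables of RPKM, counts of junction reads and contig signal. The programs are not given in the sources used here. Expected counts were rounded. TMM scaling came from edgeR 4.0.16 and alternative size factors from DESeq2 1.42.0, in R 4.3.3. The exact binomial test used genes with at least 10 counts, and log2 ratios added 0.5 counts. The test was tried on simulated counts that held counting error alone. These cannot show how it behaves on libraries with further variation. Benjamini-Hochberg adjustment ran over all tested genes. Junction medians used, for each gene, the introns of the mm9 transcript with most junction reads, not every annotated junction. A contig counted for an exon at an overlap of 1 base on the same strand. Alternatives were other scalings, filters, raised noise, other units and leaving out a library. Intervals and binomial p-values cover counting error alone, as the reads carry no molecular identifiers. The edgeR exact test at raised noise adds a common biological coefficient of variation, estimated from the same 2 libraries that it compares. Columns of mm9 tables are given by number, not by replicate, and positions of the 2 builds are kept apart. Symbols came from GENCODE M21. All members are covered. In full are named Lars2, the 3 highest and the lowest of each class, and members past the threshold with 1.2-fold, with other called members briefly. The members and lists were chosen with earlier results of these data known. Some items are not reported here.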

Additional observations from a re-analysis of the deposited data

How the results depend on the processing

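No paired analysis was possible because the series holds 1 group. With the edgeR exact test at raised noise, in place of the binomial test, the called members fell from 7 to 1, those higher in replicate 2 from 3 to 1 and those lower from 4 to 0, and calls in the other lists from 19 to 2. The share called over all tested genes fell from 28.7% to 1.31%. With plain totals 7 members were called lower. On TPM ratios the median of the members was -0.16, Lars2 was 1.21 and Tars was -0.042. Tars lost its call with plain totals and Sars with a minimum of 1 count; 3 members gained one with plain totals. The log2 ratio of the cytosolic to the mitochondrial median level was 1.40, and it was 1.79 without division by length, 1.59 on mm9 RPKM, 1.12 by reads per junction and 1.503 without Lars2. Leaving out 1 library gave 1.38 to 1.41. The median level of 19.9 TPM became 30.6 TPM without mitochondrially encoded and rRNA-like rows. By reads per junction Lars2 ranked 30, and the log2 ratios of Lars/Lars2, Tars/Tars2 and Iars/Iars2 turned to 0.30, 0.077 and -0.15; Tars/Tars2 was 0.016 on mm9 RPKM. Lars2 had 36.2% of the median junction reads of the other members, and 31.2% in the second column alone. The cause was not tested. Junction-based levels and the medians without Lars2 were chosen after seeing the data.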
